A study of Mus musculus with 8 samples.

Results

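The expression of mouse embryonic stem (ES) cells edited to lack Pcgf3 was compared with that of unedited ES cells. The libraries were chosen by their labels: 2 of the Pcgf3 knockout (Pcgf3KO) and 2 of wild-type cells (WT), which is 4 of the 8 libraries of the series. The other 4 are 2 of a Pcgf5 knockout (Pcgf5KO) and 2 of a Pcgf3/5 double knockout (DKO). All lines carried the label C57BL/6 and grew in medium with fetal calf serum and leukemia inhibitory factor on a layer of mitomycin-C treated mouse embryonic fibroblasts, called feeders. The edited lines were made with Cas9. The labels do not say whether the libraries of a group came from separate clones or cultures, so a p-value here measures the spread between these libraries, which may be technical. No group is labelled as unmodified cells taken through the Cas9 procedure, so an effect of that procedure cannot be told apart from an effect of the lost gene.

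Pcgf3 is a RING finger protein of the Polycomb group. It pairs with Ring1 or Rnf2 in a variant Polycomb repressive complex 1 (PRC1) that ubiquitinates histone H2A, together with Rybp or Yaf2, Auts2-family proteins and casein kinase subunits. Polycomb repressive complex 2 (PRC2) methylates histone H3 at many of the same loci, and in ES cells both complexes sit at silent developmental genes. Pcgf5 is the closest relative of Pcgf3 and occurs in a complex with nearly the same partners.

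The deposited values are counts of sequenced reads per gene. Total counts were between 12652616 and 19923964 in 7 libraries. The table of WT replicate 1 at hand lists 8093 of 47069 genes (17.2%), with 3459002 counts, and a gene it does not list was taken as not measured there. The comparison was therefore tested in 2 ways. With both WT libraries 2702 genes were tested, and their levels are counts scaled to library size (CPM), here to the counts of the genes listed in all 8 tables. With WT replicate 2 as the single WT library 15669 genes were tested, and their levels are CPM of all genes, a scale on which the same gene reads lower. Both used edgeR's quasi-likelihood test with a spread shared by all groups, with p-values adjusted by Benjamini and Hochberg's method over all genes tested, and genes at 0.05 or less count as called. Standard errors follow log2 fold changes after a ±. In the second test WT is assumed to vary as the other groups do.

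Pcgf3 itself (chromosome 5, 108461232 to 108506976, mm10) is not listed for WT replicate 1. Its level was 110 CPM in WT replicate 2 and 66.1 and 60.5 in the Pcgf3KO libraries. Both Pcgf3KO libraries were thus below WT, and the fall passed the test (log2 fold change -0.79 ± 0.14, adjusted p = 0.021). It did not pass when either Pcgf3KO library or either Pcgf5KO library was left out. The counts cover the whole gene, and a small deletion or frameshift need not remove the transcript, so they do not show whether the protein was lost.

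The partners of Pcgf3 were described from a list of 13 genes, all of which were tested. edgeR called 0 of them, 0 also had an unadjusted p under 0.05, and DESeq2 called 0. Leaving out the DKO libraries also gave 0 calls, while 1585 genes were then called higher and 1573 lower over all genes. Leaving out a Pcgf3KO library cannot decide this, since few genes were then called at all. Their median log2 fold change was -0.021, beside 0.002 over all 15669 genes. The catalytic partner Rnf2 stood at 172 CPM in WT and at 167 and 173 in Pcgf3KO, so the groups overlapped. Rybp was at 228 in WT against 211 and 201 (-0.14, adjusted p = 0.553). Tex10, at 216 in WT against 200 and 205, did not pass either (-0.09 ± 0.09, adjusted p = 0.671). Pcgf5 was at 20.7 against 17.3 and 17.4 (-0.26 ± 0.18, adjusted p = 0.546), so a rise of the paralog was not detected. Among 24 other PRC1 genes edgeR called 0 (3 lower at an unadjusted p under 0.05, 0 by DESeq2), with a median of -0.013. Without the DKO libraries 1 was higher and 3 were lower, to be read beside the 1585 and 1573 called then over all genes.

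Genes of PRC2 were higher in part. Of 12 tested, 2 rose and 0 fell, against a background of 1.08% of all tested genes called higher and 1.28% called lower with WT replicate 2. Phf19, an accessory subunit that binds methylated histone H3, was at 55.5 CPM in WT and at 94.6 and 99.6 in Pcgf3KO (0.81 ± 0.10, adjusted p = 0.00507). Jarid2, a DNA-binding cofactor of the complex, rose from 463 to 682 and 660 (0.54 ± 0.10, adjusted p = 0.0224). Suz12, a core subunit, could be set against both WT libraries. On the scale of the listed genes it was at 1310 and 1350 in WT and at 1900 and 1810 in Pcgf3KO (0.48, adjusted p = 0.0154). With WT replicate 2 alone, as used for the other 2, Suz12 did not pass (0.46) and is not among the 2 rises. All 3 lay above every WT library at hand. So did 40.4% of all genes tested with WT replicate 2 and 28.5% of those tested with both. The catalytic genes Ezh2 (-0.02) and Ezh1 (0.20) and the core gene Eed (0.20) did not pass. With either Pcgf3KO library left out 0 of the 12 were called, and without the DKO libraries 6 were higher.

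With both WT libraries, 149 of 2702 genes were called (5.51%), 86 higher (3.18%) and 63 lower (2.33%). In every one of them both Pcgf3KO libraries lay beyond both WT libraries. Such separation alone is common here, since 1519 of the tested genes (56.2%) showed it. Among the calls, 30 rises and 25 falls were larger than 2-fold. Between the nearest pair of libraries the median ratio was 1.49 for the rises and 1.6 for the falls.

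**Figure D1:**
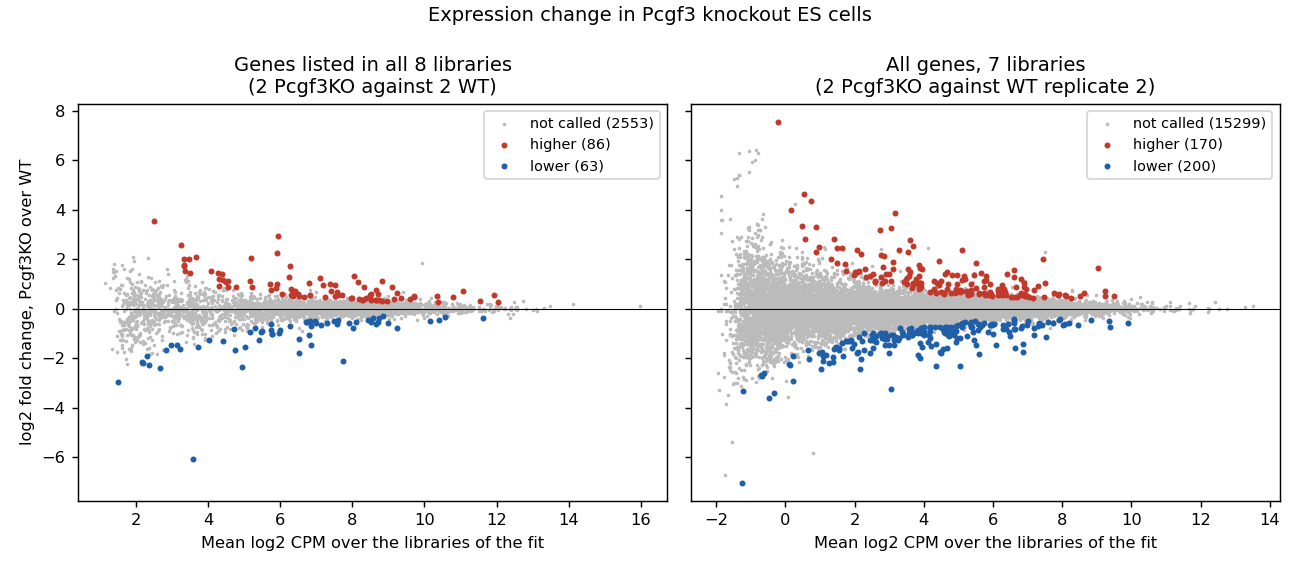
Log2 fold change of Pcgf3KO over WT (vertical axis) against the mean log2 CPM of a gene (horizontal axis), with both WT libraries on the left (2702 genes) and with WT replicate 2 on the right (15669 genes). Each point is a gene, red where called higher (86 and 170), blue where called lower (63 and 200) and grey where not called. The calls lie on both sides of 0, and low-level genes spread widely without being called.

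Lemd1, a gene for a LEM-domain protein known from testis, was the clearest rise with both WT libraries. Its level was 11.7 and 15.4 CPM of the listed genes in WT and 108 and 103 in Pcgf3KO. The lowest Pcgf3KO library was therefore several times above the highest WT library (2.96 ± 0.20, adjusted p = 2.54e-05). The noncoding RNA gene Ptprtos was at 20.3 and 18.9 in WT against 97.9 and 91.3 (2.27 ± 0.16, adjusted p = 2.73e-05). D1Pas1, a testis-expressed RNA helicase gene related to Ddx3x, was at 25.4 and 28.9 against 90.3 and 89.7 (1.73 ± 0.17, adjusted p = 0.000202). Its relatives can share reads with it. These 3 genes passed under all 14 other settings tried, each library left out in turn included.

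Several further rises were of low-level genes. Ndufa4l2, a hypoxia-induced subunit gene of the respiratory chain, was at 3.43 and 3.85 in WT and at 17.9 and 13.3 in Pcgf3KO (2.09, adjusted p = 0.00412). Cd79b, of the B-cell receptor, was at 4.29 and 3.21 against 12.8 and 13.6 (1.79, adjusted p = 0.0213). Ulbp1, a ligand gene of the natural killer receptor NKG2D, was at 6.86 and 3.53 against 18.2 and 16.7 (1.73, adjusted p = 0.0254). In each of these both Pcgf3KO libraries were above both WT libraries, and in Ulbp1 the WT libraries were also unlike each other. Apol6 (2.60), Gpat2 (2.04), Cep83os (1.54), Oas1a (1.52) and Zglp1 (1.46) completed the rises, and none of these 5 nor the 3 before them passed under every setting. Tifab, of the TIFA family, rested on 3 counts in WT and 38 in Pcgf3KO, whose ratio was 12.3 with a 95% counting interval of 3.89 to 62.1.

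Among the falls with both WT libraries, Csf1, the growth factor of macrophages, was at 67.4 and 74.5 in WT and at 15.0 and 13.0 in Pcgf3KO. The Pcgf3KO libraries stood close together and far below both WT libraries (-2.33 ± 0.22, adjusted p = 0.000163). Bmp1, a protease that processes procollagens, was at 166 and 192 against 52.2 and 52.1 (-1.77 ± 0.21, adjusted p = 0.000722). Pmp22, a membrane protein known from myelin, was at 44.9 and 50.1 against 16.7 and 13.3 (-1.65 ± 0.23, adjusted p = 0.00203). These 3 also passed under all 14 other settings, as the 3 rises above did, and every gene named here for size kept its direction throughout.

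**Figure D2:**
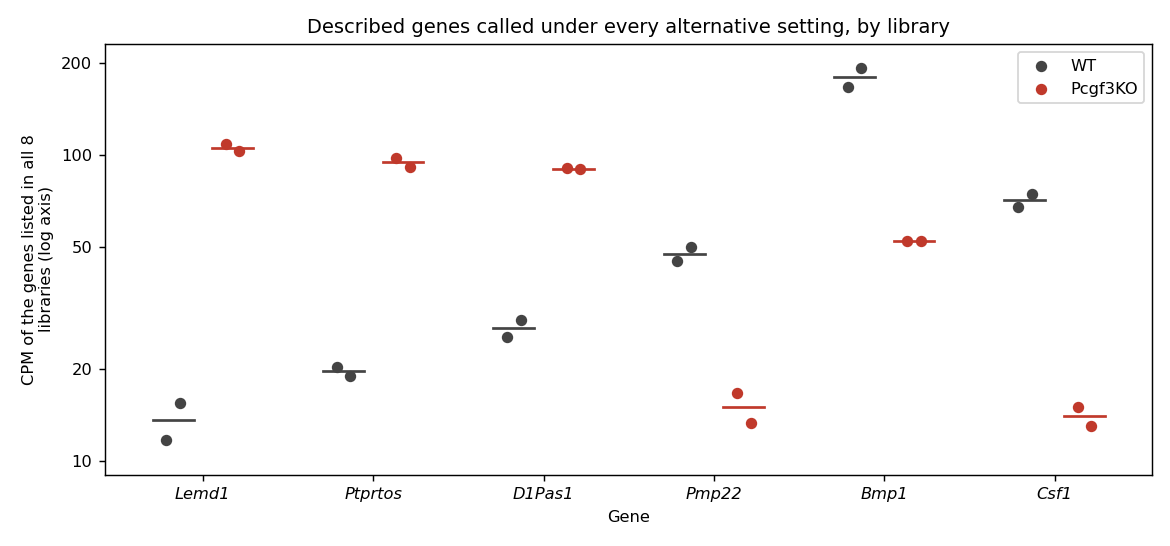
CPM of the genes listed in all 8 libraries (log axis) for the 6 genes named above that passed under every setting tried, with WT in grey and Pcgf3KO in red. Points are libraries (2 per group) and bars are group means. In each gene the 2 groups are apart, from 11.7 and 15.4 against 108 and 103 in Lemd1 to 67.4 and 74.5 against 15.0 and 13.0 in Csf1.

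The other named falls rested on lower levels. Adam12, a membrane metalloprotease gene, was at 9.14 and 8.35 against 2.27 and 1.58 (-2.15, adjusted p = 0.0254). Cyp1b1, of the cytochrome P450 family, was at 15.1 and 10.3 against 3.12 and 5.06 (-1.64, adjusted p = 0.0414). Tnfaip6, a hyaluronan-binding matrix protein gene, was at 10.3 and 19.6 against 3.97 and 5.69 (-1.62, adjusted p = 0.045). Their groups did not overlap, though in Tnfaip6 the WT libraries differed by more than the gap between the groups. Bcl11b (-2.38), Asb4 (-2.27), Abca6 (-2.17) and Acsbg1 (-1.92) had adjusted p values between 0.0143 and 0.0445. Neither these genes nor Adam12, Cyp1b1 and Tnfaip6 passed under every setting. The imprinted noncoding gene Peg13 went from 149 counts in WT to 2 in Pcgf3KO, whose ratio was 0.013 (counting interval 0.00156 to 0.0478). Peg13 passed edgeR's test (-6.05 ± 1.37, adjusted p = 0.0266), but not when any 1 of the WT or Pcgf3KO libraries was left out. It was not low in both other edited groups: Pcgf5KO had 21.6 and 8.6 CPM, while DKO replicate 1 had 0 and DKO replicate 2 had 15.1.

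How well WT replicate 2 stands for WT could be measured on the genes listed in both. Of the genes whose Pcgf3KO libraries were both above WT replicate 2, 771 of 1108 (69.6%) were also above WT replicate 1, and 748 of 1096 (68.2%) of those below were also below it. Among differences over 2-fold the shares were 60 of 81 (74.1%) and 91 of 100 (91.0%). Of 64 genes that were called with WT replicate 2 and also tested with both, 64 lay beyond both WT libraries and 59 (92.2%) were called with both. The 5 that lost their call were Fn1, Psd4, Gpc4, Vstm2a and Kdr. In Kdr, the receptor of vascular endothelial growth factor, WT replicates stood at 82.3 and 172 and Pcgf3KO at 69.8 and 65.1, and the adjusted p was 0.0971 with both WT libraries against 0.012 with WT replicate 2.

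Over all genes, 370 of 15669 were called with WT replicate 2 (2.36%), 170 higher and 200 lower, of which 90 and 106 differed by more than 2-fold. Both Pcgf3KO libraries lay beyond WT replicate 2 in all 370, as they did in 80.9% of all tested genes. Krt42, a type I keratin gene, was at 18.3 CPM of all genes in WT and at 64.6 and 66.8 in Pcgf3KO (1.84 ± 0.12, adjusted p = 0.000352). Sept1, of the septin cytoskeleton, was at 58.1 against 228 and 238 (2.00, adjusted p = 0.00119). Serpinf1, the secreted pigment epithelium-derived factor, was at 6.15 against 23.8 and 23.6 (1.94, adjusted p = 0.00124). These 3 rises passed under all 12 other settings. Slc4a5, a bicarbonate cotransporter gene (2.39), Maml2, a Notch coactivator gene (2.38), and Myo1g (2.18) also rose, each from under 3 CPM in WT.

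Dnmt3l and Aire, neighbours on chromosome 10, were both higher. Dnmt3l, the cofactor of de novo DNA methyltransferases, was at 212 CPM in WT and at 642 and 695 in Pcgf3KO (1.66, adjusted p = 0.000207). Aire, the transcription factor of thymic epithelium, was at 6.66 against 34.2 and 36.0 (2.40 ± 0.42, adjusted p = 0.021). Since the library preparation keeps no strand, reads of genes that overlap or meet cannot be told apart there. Aire did not pass with either Pcgf3KO library left out. In all, 14 runs of at least 2 neighbouring tested genes were called the same way, and 2 of them held 3 genes. One was Slc12a8, Heg1 and Itgb5 on chromosome 16 (-0.77, -0.76 and -0.80), and the other was Irs2, Col4a1 and Col4a2 on chromosome 8 (-0.90, -1.58 and -1.82).

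Efhc2, an X-linked gene for an EF-hand protein, was the largest of the 12 falls named for size over all genes. It stood at 21.6 CPM in WT and at 2.42 and 2.13 in Pcgf3KO (-3.24 ± 0.21, adjusted p = 0.000352). Vgf, a neuropeptide precursor gene, was at 44.9 against 11 and 11.7 (-1.98, adjusted p = 0.0013). Phldb2, a protein at the cell cortex, was at 53.7 against 17.8 and 17.6 (-1.60, adjusted p = 0.000486), and Dcaf12l1 at 47.9 against 14.7 and 14.1 (-1.73, adjusted p = 0.000486). All 4 passed under every other setting. Hmga2, a chromatin protein of embryonic cells (-1.78), and Wls, which carries Wnt proteins to the cell surface (-1.78), also fell.

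Gene lists were set beside these calls to describe which functions the changed genes have. Each count below is over the members tested with WT replicate 2. Over all 15669 genes of that test, 1.08% were called higher and 1.28% lower. Counts of called members move strongly with the libraries in the fit. Each count was therefore repeated without the DKO libraries and with each Pcgf3KO library left out. The DKO libraries were the pair furthest apart, with a correlation of log2 CPM across genes of 0.985, beside 0.991 in WT, 0.994 in Pcgf3KO and 0.992 in Pcgf5KO.

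Pluripotency genes were higher in part. Of 26 tested, 6 rose and 0 fell, with a median log2 fold change of 0.208 beside 0.002 over all genes. Dppa5a, an RNA-binding protein of ES cells, was at 402 CPM in WT and at 644 and 699 in Pcgf3KO (0.74 ± 0.11, adjusted p = 0.0106). Tcl1, a cofactor of the kinase Akt, was at 6.21 against 15.8 and 15.7 (1.34, adjusted p = 0.0119). Tfcp2l1, a factor of the naive state, was at 103 against 142 and 146 (0.48, adjusted p = 0.0332). Fgf4, Nr0b1 and Fbxo15 were the other 3. The core factor genes did not pass: Pou5f1 had 0.22 (adjusted p = 0.241), Sox2 0.18 (adjusted p = 0.326) and Nanog 0.49 (adjusted p = 0.173). The count of 6 became 14 without the DKO libraries and 0 with either Pcgf3KO library left out.

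All 10 ES cell markers were present, with a summed level of 3050 CPM in WT replicate 2 and 3590 and 3720 in Pcgf3KO. Of these 10, 2 were higher, which became 7 without the DKO libraries and 0 with either Pcgf3KO library left out. Genes of the primed epiblast, the later pluripotent state, went both ways: of 14, 0 rose and 2 fell. Lefty2, a secreted inhibitor of Nodal signalling, was at 188 against 92.4 and 88.1 (-1.06 ± 0.09, adjusted p = 0.000979) and passed under every other setting. Cdh2, the N-cadherin gene, was at 28.9 against 17.5 and 17.8 (-0.71, adjusted p = 0.0469). Foxd3 (0.60, adjusted p = 0.0708) and Zic2 (0.56, adjusted p = 0.0922) had values on the other side of 0 and did not pass. Without the DKO libraries 7 primed genes were higher and 4 lower, and with either Pcgf3KO library left out 1 was lower.

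Germline and meiosis genes had the highest median of all lists, 0.492 over 31 tested genes, of which 6 rose and 0 fell. Tex14, needed for the bridges between germ cells, was at 14.6 CPM in WT and at 29.4 and 27.8 in Pcgf3KO (0.97 ± 0.14, adjusted p = 0.00905). The meiotic cohesin gene Stag3 was at 6.43 against 13.4 and 13.8 (1.08, adjusted p = 0.0149). Smc1b, another meiotic cohesin gene, was at 0.512 against 4.53 and 2.74 (2.82, adjusted p = 0.0187), and Hormad1, of the chromosome axis, at 1.25 against 3.63 and 3.75 (1.55, adjusted p = 0.0445). Both WT libraries could be used for 7 members, of which 4 were called higher: Gpat2, Tex11, Zglp1 and D1Pas1. Tex11, an X-linked gene of meiotic recombination, stood at 10.6 and 10.6 CPM of the listed genes in WT and at 27.5 and 30.0 in Pcgf3KO (1.44, adjusted p = 0.00785). Of the 7, 6 lay above both WT libraries, against 28.5% of all genes tested there. With WT replicate 2 both Pcgf3KO libraries were above WT in 23 of the 31, against 40.4% of all genes. With WT replicate 2 the 6 became 13 without the DKO libraries, and 0 and 1 without Pcgf3KO replicate 1 and 2. Germ cell genes such as Dazl (1.07, adjusted p = 0.28), Ddx4 (0.49, adjusted p = 0.0713) and Sycp3 (-0.62, adjusted p = 0.337) did not pass.

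Because members of this list rose in both tests, their promoters were read from RefSeq's table (GRCm38.p6, the assembly behind mm10), from 250 bases before to 50 after each start site. The 3 motifs searched were read on both strands. Known from germline promoters are CACGTG, the E-box of Mga and Max, and TTCCCGC, an E2F site. The third was GGGCGG, the GC box that Sp1 binds. CACGTG and TTCCCGC can share at most 1 base. CACGTG occurred in 12 of the 29 germline promoters in the table (41.4%), beside 7.15% of 32851 promoters of the same length and 9.99% of the 11457 of tested genes. TTCCCGC occurred in 8 of 29 (27.6%), beside 4.6% and 8.52%. GGGCGG occurred in 14 of 29 (48.3%), beside 35.7% and 64.3%, so less often than among tested genes. Of the 8 germline genes called in either test 7 had a promoter in the table, with CACGTG in 3, TTCCCGC in 4 and GGGCGG in 3. The list was chosen for function and not for promoters, and a match describes letters, not binding. The 3 promoters with CACGTG are shown 5′ to 3′ on the strand of the gene, with CACGTG in capitals. They are those of Stag3 (chr5:138280259-138280558, + strand), Hormad1 (chr3:95559427-95559726, + strand) and Zglp1 (chr9:21067044-21067343, - strand).
Stag3: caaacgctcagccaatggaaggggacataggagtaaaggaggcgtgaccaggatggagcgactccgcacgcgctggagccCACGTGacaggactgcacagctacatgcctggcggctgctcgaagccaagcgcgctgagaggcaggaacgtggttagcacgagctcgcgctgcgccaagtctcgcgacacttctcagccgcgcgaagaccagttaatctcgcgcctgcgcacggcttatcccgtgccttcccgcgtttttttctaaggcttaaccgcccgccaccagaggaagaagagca
Hormad1: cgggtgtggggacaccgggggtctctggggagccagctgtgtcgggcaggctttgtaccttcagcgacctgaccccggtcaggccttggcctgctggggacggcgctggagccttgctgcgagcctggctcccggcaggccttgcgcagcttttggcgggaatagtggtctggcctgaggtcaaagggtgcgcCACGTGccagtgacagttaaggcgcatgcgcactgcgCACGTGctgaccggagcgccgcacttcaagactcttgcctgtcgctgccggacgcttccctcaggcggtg
Zglp1: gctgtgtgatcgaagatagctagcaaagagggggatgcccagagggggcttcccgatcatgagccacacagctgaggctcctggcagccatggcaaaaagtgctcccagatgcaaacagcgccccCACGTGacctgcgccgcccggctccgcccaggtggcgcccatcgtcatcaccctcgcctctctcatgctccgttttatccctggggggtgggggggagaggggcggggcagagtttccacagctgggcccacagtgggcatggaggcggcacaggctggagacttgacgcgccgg
The motif begins at base -170 from the start site in Stag3, at -57 and -20 in Hormad1, and at -125 in Zglp1. Stag3 and Hormad1 also hold TTCCCGC on 1 strand. Zglp1, a zinc finger gene of the oocyte programme, was at 4.86 and 4.18 CPM of the listed genes in WT against 13.1 and 12 in Pcgf3KO.

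Basement membrane genes fell in part, 7 of 21 with 0 higher and a median of -0.310. Col4a1 and Col4a2 encode the chains of the main collagen IV network. Col4a1 was at 200 CPM in WT and at 68.4 and 65.8 in Pcgf3KO (-1.58 ± 0.13, adjusted p = 0.000877), and Col4a2 at 114 against 33.8 and 30.8 (-1.82 ± 0.20, adjusted p = 0.0022). Both passed under every other setting. Col4a5, an X-linked collagen IV gene, fell from 2.28 to 0.202 and 0.224 (-3.38, adjusted p = 0.0121). Lamb1, a laminin chain (308 against 223 and 239), and Serpinh1, the collagen chaperone (134 against 89.0 and 90.7), fell less. Plod2, which hydroxylates collagen lysines, could be set against both WT libraries: 340 and 362 CPM of the listed genes against 254 and 226 (-0.55, adjusted p = 0.0103). The seventh, Fn1, was called with WT replicate 2 (-0.57, adjusted p = 0.0189) and not with both (-0.37, adjusted p = 0.103). Without the DKO libraries 14 were lower, and 2 with either Pcgf3KO library left out.

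Col4a1 and Col4a2 lie head to head and share a promoter region, so their RefSeq promoter windows overlap by 78 bases. They are shown because these neighbours fell together. Each is given 5′ to 3′ on the strand of its own gene, Col4a1 at chr8:11312777-11313076 (- strand) and Col4a2 at chr8:11312555-11312854 (+ strand). Capitals mark GGGCGG, the GC box that Sp1 binds, or its reverse complement CCGCCC, whose ends can overlap TTCCCGC. It occurs in 35.7% of all promoters in the table and 64.3% of those of tested genes.
Col4a1: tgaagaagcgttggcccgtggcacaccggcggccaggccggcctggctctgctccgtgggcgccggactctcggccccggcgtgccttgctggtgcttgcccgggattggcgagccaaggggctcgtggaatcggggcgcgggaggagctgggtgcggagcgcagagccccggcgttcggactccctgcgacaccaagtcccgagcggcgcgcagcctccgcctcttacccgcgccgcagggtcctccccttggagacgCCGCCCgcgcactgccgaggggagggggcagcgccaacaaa
Col4a2: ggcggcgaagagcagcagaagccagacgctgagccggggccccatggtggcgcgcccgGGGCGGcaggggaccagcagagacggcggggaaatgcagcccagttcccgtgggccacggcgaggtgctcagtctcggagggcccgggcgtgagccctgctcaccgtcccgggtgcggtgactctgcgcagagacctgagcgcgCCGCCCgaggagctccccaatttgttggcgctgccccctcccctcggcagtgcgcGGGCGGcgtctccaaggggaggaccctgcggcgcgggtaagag
Col4a1 holds 1 such match and Col4a2 holds 3. The match in Col4a1 is the last of those in Col4a2, read on the other strand within the 78 shared bases. Without strand information, reads from the stretch that both genes share cannot be assigned to one of them.

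Collagen genes are also made by the feeder cells, so the feeder markers were read beside them. Of 23 tested, 6 fell and 0 rose, with a median of -0.775. Their summed level was 404 CPM in WT replicate 2. Both Pcgf3KO libraries had less (253 and 267) than the libraries of Pcgf5KO (329 and 328) and DKO (297 and 352). The 6 were Col1a1 (16.2 against 5.19 and 6.60), Col1a2 (6.15 against 2.52 and 2.52), Col5a2 (11.3 against 2.02 and 3.64), Mmp2 (35.9 against 20.2 and 21.8), Vim (95.4 against 53 and 54.6) and Acta2 (11.1 against 5.69 and 4.92). With both WT libraries Col5a1 fell as well, from 167 and 187 CPM of the listed genes to 112 and 124 (-0.58, adjusted p = 0.0237). Other abundant markers did not pass, such as Fbln1 (51.2 against 50.1 and 48.4) and, with both WT libraries, Timp3 (52.3 and 64.9 against 64.1 and 66.0). The other 5 of the 28 markers had at most 6 counts in these 3 libraries: Postn, S100a4, Fap, Twist2 and Prrx1, with S100a4 at 0 in all 3. The 6 became 15 without the DKO libraries and 0 with either Pcgf3KO library left out. In bulk RNA fewer cells of a type and less RNA per cell cannot be told apart, and the part of the feeders in the lower matrix genes was not tested. Nor was their part in the falls named earlier, such as Csf1, Bmp1, Adam12 and Tnfaip6.

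Genes induced by YAP, the transcriptional coactivator of the Hippo pathway, had the lowest median of all lists with WT replicate 2. Of 19 tested, 10 fell and 0 rose, and 18 were below WT replicate 2 in both Pcgf3KO libraries, beside 40.6% of all genes. Their median was -0.782. For the 2 members tested with both WT libraries the median was -0.242, and 0 were called. Thbs1, a matrix glycoprotein, was at 62.0 CPM in WT and at 17.4 and 18.3 in Pcgf3KO (-1.80 ± 0.16, adjusted p = 0.000979). The matricellular gene Ccn1 was at 159 against 55.2 and 58.9 (-1.47 ± 0.15, adjusted p = 0.00149). Amotl2, a binding partner of YAP, was at 230 against 130 and 137 (-0.78, adjusted p = 0.0051). Thbs1 and Ccn1 passed under every other setting. Ccn2 (-0.73), Axl (-1.24), Myof (-1.33), Tgfb2 (-2.14), Lats2 (-1.15), Crim1 (-0.94) and F3 (-0.94) were the other 7. Nf2, a gene of the Hippo pathway that is not on the list, was higher with both WT libraries, at 1060 and 1020 CPM of the listed genes against 1460 and 1530 (0.52, adjusted p = 0.00196), and it was picked after its values were seen. Only 2 YAP targets were still called with either Pcgf3KO library left out, and 16 were called without the DKO libraries. Fibroblasts express YAP targets too, and the feeder markers moved the same way (404 against 253 and 267); their part was not tested.

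Of 19 contractile genes tested, 2 fell, Cald1 and Acta2, and 0 rose. Acta2 is also a feeder marker, and the summed feeder markers were lower too (404 against 253 and 267); their part was not tested. With both WT libraries the actin-binding gene Cald1 was at 863 and 924 against 538 and 513 (-0.77, adjusted p = 0.000269), and tropomyosin Tpm1 at 1700 and 1720 against 1220 and 1270 (-0.46, adjusted p = 0.0182). The groups were apart in both. The median of the list was -0.175, and the 2 became 9 without the DKO libraries and 0 with either Pcgf3KO library left out.

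Lists of embryonic lineages held a few falls. In the primitive streak and mesoderm list 3 of 21 tested fell and 0 rose, with a median of -0.425. Both Pcgf3KO libraries were below WT replicate 2 in 14 members and above it in 4, beside 40.6% and 40.4% of all genes. For the 4 members that could be set against both WT libraries the median was -0.019. Hand1, a factor of lateral mesoderm and trophoblast, was at 45.8 CPM in WT and at 7.81 and 10.8 in Pcgf3KO (-2.30 ± 0.47, adjusted p = 0.0378), but DKO replicate 2 stood at 46.4. Tbx20, a heart factor, was at 16.1 against 6.15 and 5.59 (-1.45 ± 0.18, adjusted p = 0.00488). Kdr was the third, with the difference between WT libraries given above. With either Pcgf3KO library left out 0 of these were called, and 4 without the DKO libraries.

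In the neuroectoderm list 4 of 15 fell and 0 rose, with a median of -0.740. Olig2, a factor of neural progenitors, was at 83.2 against 44.3 and 43.7 (-0.92 ± 0.11, adjusted p = 0.00308). Map2 (-0.96, adjusted p = 0.0105), Nes (38.3 against 23.2 and 22.6) and Neurod1 (41.2 against 23.9 and 23.1) were the others. In each of the 4 both Pcgf3KO libraries were near each other and well below WT. Again 0 were called with either Pcgf3KO library left out, and 8 without the DKO libraries.

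Extraembryonic lists held few calls. Of 14 primitive endoderm genes 1 fell, with a median of -0.758. It was Dab2, an endocytic adaptor, at 9.28 against 2.82 and 3.02 (-1.67 ± 0.22, adjusted p = 0.0054). Of 17 trophectoderm genes 3 fell, with a median of -0.388. Hand1 was one of them, and the keratin pair of simple epithelia made up the rest. Krt8 was at 418 against 178 and 198 (-1.15, adjusted p = 0.0239) and its neighbour Krt18 at 278 against 104 and 103 (-1.42, adjusted p = 0.0157). Ascl2, a factor of trophoblast progenitors, had values on the other side, at 13.8 against 22.6 and 24.2, and did not pass (0.76, adjusted p = 0.0519). Of 3 trophectoderm genes tested with both WT libraries 0 were called, and the median was 0.319. Of these 3, 2 lay above both WT libraries, beside 28.5% of all genes tested there. Both lists had 0 members called with either Pcgf3KO library left out. Without both DKO libraries 6 endoderm and 7 trophectoderm genes were lower, and 3 trophectoderm genes were higher.

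Targets of the tumour suppressor p53 fell in part, 7 of 24 with 0 higher and a median of -0.373. Plk2, a stress-induced kinase, was at 91.0 CPM in WT and at 31.3 and 35.6 in Pcgf3KO (-1.45 ± 0.13, adjusted p = 0.000979) and passed under every other setting. Perp, an apoptosis effector of the cell surface, was at 68.0 against 27.6 and 32.0 (-1.19, adjusted p = 0.00356). The cyclin gene Ccng1 was at 358 against 237 and 229 (-0.62, adjusted p = 0.0145), and Mdm2, which degrades p53, at 168 against 123 and 118 (-0.48, adjusted p = 0.0357). Both Pcgf3KO libraries lay below WT in each. Pmaip1 (-0.93), Btg2 (-0.91) and Eda2r (-0.75) fell too. Of the 3 members tested with both WT libraries 0 were called, with a median of -0.244. The summed feeder markers were lower too (404 CPM in WT replicate 2 against 253 and 267 in Pcgf3KO), and their part was not tested. The cell cycle inhibitor Cdkn1a, at 47.8 against 37.2 and 34.0, did not pass (-0.42, adjusted p = 0.192), and Bax had 0.05. Without the DKO libraries 16 were lower, and 1 and 3 without Pcgf3KO replicate 1 and 2.

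**Figure D3:**
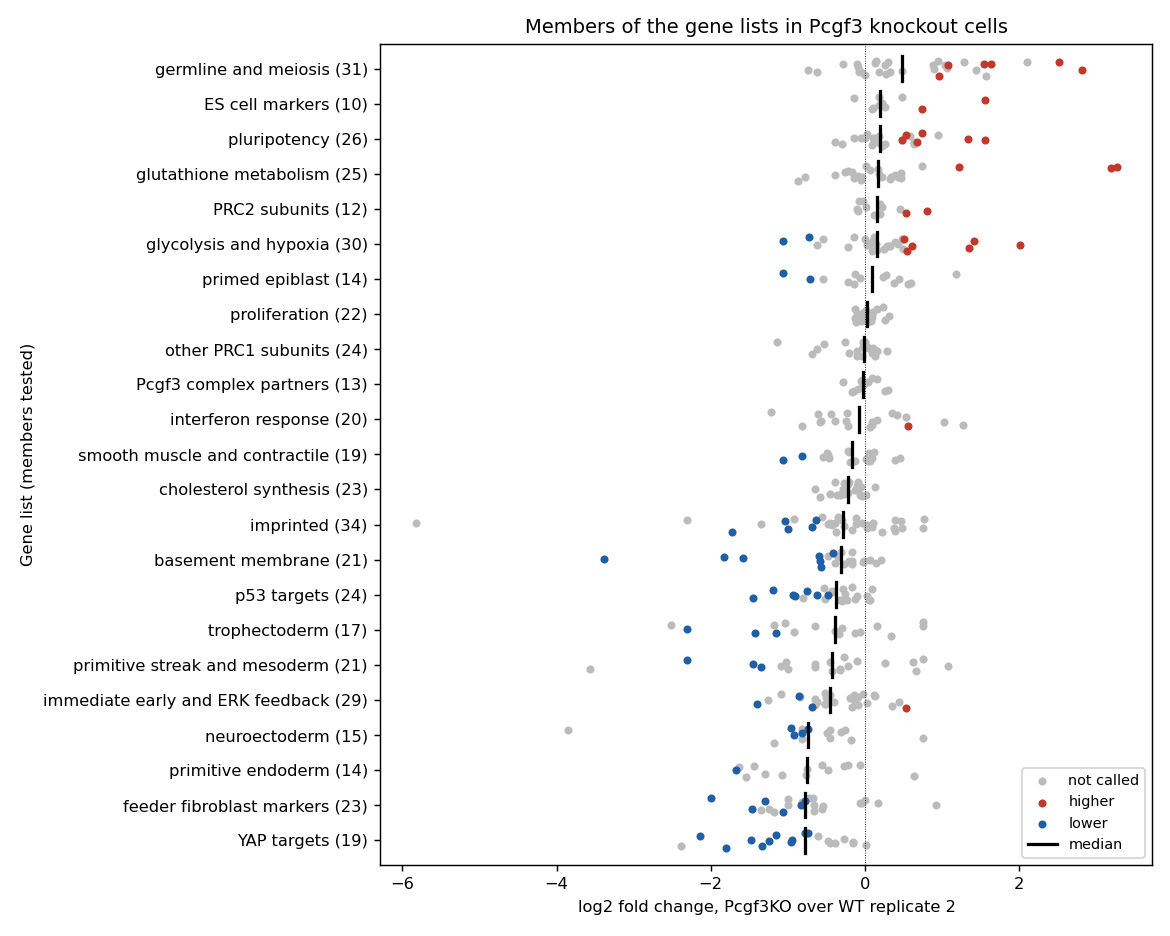
Log2 fold change of Pcgf3KO over WT replicate 2 (horizontal axis) for the tested members of the 23 gene lists (vertical axis, number tested in brackets), ordered by median. Each point is a gene, red where called higher, blue where called lower, grey where not called, and the black bar is the median. Germline genes have the highest median (0.492) and YAP targets the lowest (-0.782), while the Pcgf3 partners lie at 0 with 0 calls.

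Glycolysis and hypoxia genes went both ways, with 6 of 30 higher, 2 lower and a median of 0.155. Bnip3, a mitophagy receptor induced by hypoxia, could be set against both WT libraries, at 287 and 198 CPM of the listed genes against 553 and 511 (1.13, adjusted p = 0.00196). Hk1, hexokinase 1, was at 289 and 329 against 447 and 484 (0.59, adjusted p = 0.00785), but did not pass with WT replicate 2 (0.50, adjusted p = 0.0713) and is not among the 6. Over all genes the prolyl hydroxylase gene Egln3 was at 12.4 CPM in WT against 33.8 and 30.0 (1.36, adjusted p = 0.0169), and Pdk1 at 175 against 287 and 250 (0.61, adjusted p = 0.0224). The enzymes Tpi1 (0.51) and Aldoc (0.55) rose as well. The 2 that fell were the glycolytic kinases Pgk1, at 649 against 390 and 398 (-0.72 ± 0.08, adjusted p = 0.00198), and Pfkfb3, at 28.8 against 13.9 and 13.6 (-1.06, adjusted p = 0.00426). Gapdh (0.01) and Ldha (0.09) did not pass. The 6 became 14 without the DKO libraries and 1 with either Pcgf3KO library left out. The 2 falls became 3, and 0 and 1 without Pcgf3KO replicate 1 and 2.

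Glutathione and detoxification genes held 3 rises and 0 falls among 25, with a median of 0.166. The neighbouring transferase genes Gstp1 and Gstp2 were at 21.2 and 1.48 CPM in WT. Gstp1 rose to 46.2 and 52.9 (1.22 ± 0.14, adjusted p = 0.00247) and Gstp2 to 13.5 and 15.4 (3.28 ± 0.27, adjusted p = 0.000877). As near-identical copies they may share reads. As3mt, which methylates arsenic, rose from 0.911 to 7.71 and 9.12 (3.20 ± 0.36, adjusted p = 0.00284). Each of the 3 passed under every other setting. Without the DKO libraries 10 members were higher and 1 lower, and with either Pcgf3KO library left out the count stayed at 3.

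Imprinted genes, expressed from the allele of 1 parent, fell in 5 of 34 cases with 0 higher and a median of -0.283. Igf2, the fetal growth factor, was at 268 CPM in WT and at 78.6 and 83.9 in Pcgf3KO (-1.72 ± 0.21, adjusted p = 0.00485). Cdkn1c, a cell cycle inhibitor, was at 97.6 against 50.4 and 47.2 (adjusted p = 0.0231), and Mest at 226 against 143 and 139 (-0.69, adjusted p = 0.0275). Nnat (-1.04) and Grb10 (-0.63) were the others. With both WT libraries 3 of 6 members fell: Peg13, Asb4 and Sfmbt2, the last at 760 and 640 CPM of the listed genes against 472 and 468 (-0.58, adjusted p = 0.0141). H19, the noncoding gene beside Igf2, did not pass (-0.11, adjusted p = 0.98). The 5 became 14 without the DKO libraries, with 7 higher, and 0 with either Pcgf3KO library left out.

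Immediate early and ERK feedback genes, which growth factor signalling switches on, had 1 rise and 3 falls among 29, with a median of -0.455. Etv5, an ETS factor, was at 2750 and 2830 CPM of the listed genes in WT against 4100 and 4120 (0.56, adjusted p = 0.000466). Dusp6, an ERK phosphatase, was at 171 CPM of all genes against 106 and 108 (-0.68, adjusted p = 0.0249). Errfi1, an inhibitor of the EGF receptor, was at 42.2 against 22.2 and 24.8 (-0.85, adjusted p = 0.0145), and the stress factor Atf3 at 8.31 against 3.53 and 2.74 (-1.40, adjusted p = 0.0303). Etv5 and Dusp6, both targets of ERK signalling, thus stood on opposite sides of WT. With either Pcgf3KO library left out 0 were called in either direction, and without the DKO libraries 2 were higher and 14 lower.

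Interferon response genes held 1 rise and 0 falls among 20. The RNA sensor gene Ddx58 was at 52.2 CPM against 75.5 and 78.0 (0.56, adjusted p = 0.0327). With both WT libraries the antiviral gene Oas1a was at 4 and 8.99 against 18.7 and 18.0 (1.52, adjusted p = 0.0237), while the histocompatibility gene H2-D1 was lower, at 155 and 193 against 99.6 and 119 (-0.67, adjusted p = 0.0385). Histocompatibility genes have close copies that can share reads. Without the DKO libraries 6 were higher and 4 lower, and with either Pcgf3KO library left out 0 were called. Of 22 proliferation genes edgeR called 0 (2 higher at an unadjusted p under 0.05, 0 by DESeq2), with a median of 0.024, and 4 were higher without the DKO libraries. Of 23 cholesterol synthesis genes edgeR also called 0 (9 lower at an unadjusted p under 0.05, 0 by DESeq2), with a median of -0.223, and 13 were lower without the DKO libraries. In both lists 0 were called with either Pcgf3KO library left out.

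Whether a change was particular to Pcgf3KO was asked against Pcgf5KO, the most similar group by design. The contrast does not use WT. Of 15669 genes, 22 differed (0.14%), 8 higher in Pcgf3KO (0.0511%) and 14 lower (0.0893%). In all 22 the libraries of the 2 groups did not overlap, as in 53.9% of all tested genes. Most genes called against WT were therefore not shown to differ between the single knockouts, which is not evidence that they respond alike. Both comparisons with WT share its libraries, so their values are given side by side only. With both WT libraries, log2 of Pcgf5KO over WT was 1.99 in Lemd1, 1.88 in Ptprtos and 1.84 in D1Pas1. It was -2.15 in Csf1, -2.05 in Bmp1 and -1.51 in Pmp22, and all were called, as in Pcgf3KO. Ulbp1 (0.02) and Bcl11b (0.09) were not called there. With WT replicate 2, the median log2 of Pcgf5KO over WT was -0.83 in YAP targets, -0.303 in p53 targets and -0.198 in basement membrane genes. In Pcgf3KO these medians were -0.782, -0.373 and -0.31. For germline genes the median was 0.18 in Pcgf5KO and 0.492 in Pcgf3KO, and for feeder markers -0.344 and -0.775. In the direct contrast 0 of 31 germline genes were called higher in Pcgf3KO, beside 0.0511% of all genes. Of 23 feeder markers 1, Vim, was called lower, beside 0.0893% of all genes.

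The clearest differences were in Efhc2 and Platr13. Efhc2 was at 2.42 and 2.13 CPM in Pcgf3KO and at 15.7 and 12.4 in Pcgf5KO, with WT at 21.6 (difference in log2 -2.63 ± 0.19, adjusted p = 0.000809). DKO, which also lacks Pcgf3, stood at 2.27 and 2.17, close to Pcgf3KO. Platr13, a noncoding RNA gene of ES cells, was at 0.504 and 0.671 in Pcgf3KO against 6.98 and 8.98 in Pcgf5KO (-3.75 ± 0.27, adjusted p = 0.000809), with WT at 1.25 and DKO at 8.85 and 8.75. Both genes passed under every other setting, the only 2 of the 10 named here that did.

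A further 3 genes were lower in Pcgf3KO than in Pcgf5KO, and their Pcgf3KO levels lay on either side of WT. Ube2l6, the conjugating enzyme of ISG15, was at 5.89 and 6.54 in Pcgf3KO, 21.2 and 21.4 in Pcgf5KO and 7.29 in WT (-1.78 ± 0.14, adjusted p = 0.00145). Smtnl1, a smoothelin-like gene, was at 2.22 and 2.52 against 9.35 and 10.4, with WT at 1.14 (-2.05, adjusted p = 0.00297). Zfp990, a zinc finger gene, was at 10.2 and 9.34 against 30.2 and 28.1, with WT at 16.5 (-1.57, adjusted p = 0.00297). In these 3 the Pcgf5KO and DKO libraries were on the high side together. Usp26, an X-linked deubiquitinase gene of testis, showed the opposite order, at 101 and 92.0 in Pcgf3KO, 45.3 and 46.8 in Pcgf5KO and 111 in WT (1.07 ± 0.09, adjusted p = 0.00154).

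Other genes were high in Pcgf3KO. Rhox6, an X-linked homeobox gene of germline and placenta, was at 11.5 and 11.2 in Pcgf3KO, 4.79 and 4.04 in Pcgf5KO and 4.21 in WT (1.35 ± 0.17, adjusted p = 0.0202). Gjb5, a connexin gene, was at 14.1 and 15.6 against 7.46 and 6.87, with WT at 5.24 (1.05, adjusted p = 0.0417). Tfcp2l1 was at 142 and 146 against 84.3 and 83.9, with WT at 103 (0.78 ± 0.08, adjusted p = 0.00427). The single knockouts thus lay on opposite sides of WT in Tfcp2l1. Ranbp17, a nuclear transport receptor gene, was at 72.6 and 71.5 against 45.8 and 45.5, with WT at 33.1 (0.66, adjusted p = 0.0434).

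Of the genes described earlier, Pgk1, Lefty2 and Vim also differed between the single knockouts in this contrast. Pgk1 was at 390 and 398 CPM of all genes against 854 and 838, with WT between them at 649 (-1.10, adjusted p = 0.000283), and passed under all 13 other settings. Lefty2 was at 92.4 and 88.1 against 135 and 147 (-0.65, adjusted p = 0.0167), and Vim at 53 and 54.6 against 87.8 and 86.1 (-0.69, adjusted p = 0.0105). Lefty2 and Vim did not pass when any 1 of the 4 libraries of the single knockouts was left out. Lemd1 was at 108 and 103 CPM of the listed genes in Pcgf3KO and at 52.5 and 55.2 in Pcgf5KO. It was at the threshold among the genes listed in all 8 tables (0.97 ± 0.17, adjusted p = 0.05) and did not pass over all genes (0.96, adjusted p = 0.0758). Vim is also a feeder marker, and the summed feeder markers were lower in Pcgf3KO (253 and 267) than in Pcgf5KO (329 and 328); their part in the difference was not tested.

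**Figure D4:**
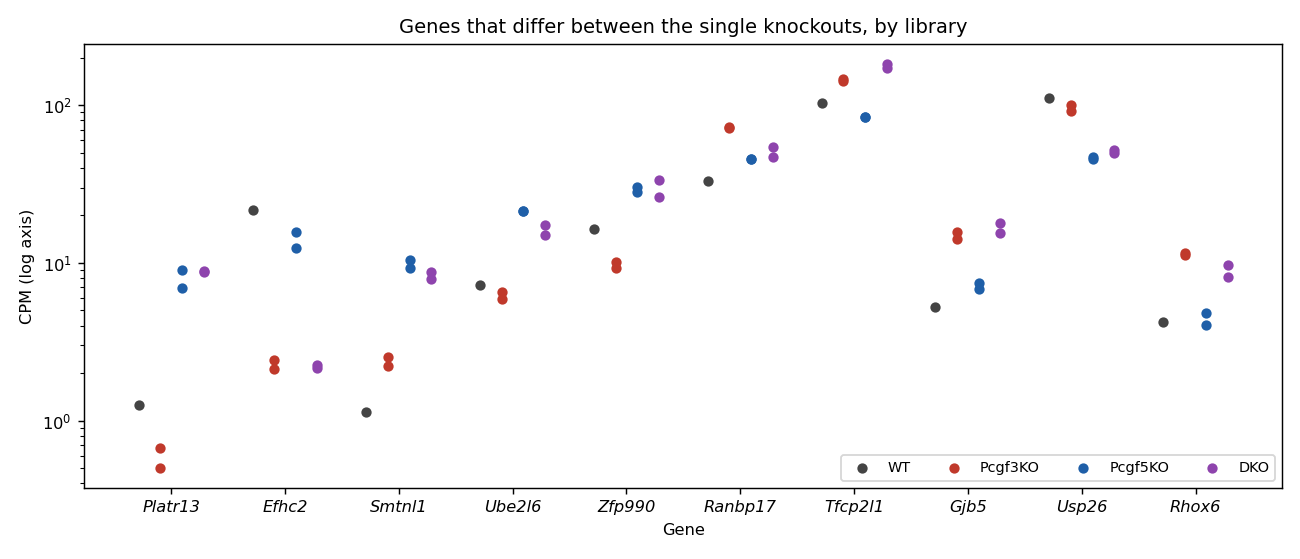
CPM over all genes (log axis) of the 10 named genes that differed between Pcgf3KO and Pcgf5KO, by library. Points are libraries, coloured by group, with WT as 1 library. Efhc2 is low in Pcgf3KO (2.42 and 2.13) and in DKO (2.27 and 2.17), while Platr13, Smtnl1, Ube2l6 and Zfp990 are high in Pcgf5KO and DKO.

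The calls were spread over the chromosomes. Median log2 fold changes by chromosome lay between -0.059 and 0.06, so no whole chromosome stood apart by level. Chromosome 11 held 27 higher and 20 lower genes of 1309 tested, and the X chromosome 9 higher and 17 lower of 567. For the X this is 1.59% and 3.0%, beside 1.08% and 1.28% over all genes. Among the X-linked falls were Efhc2, Col4a5, Dcaf12l1 and Eda2r.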

How the data were processed

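Poly-A RNA of 8 libraries was sequenced after preparation with the NEBNext Ultra kit, which does not mark strand, per the labels' protocols. The authors deposited 1 table of read counts per library, whole numbers per Ensembl gene with mm10 positions, per the file headers. TopHat2 2.0.12, Cufflinks 2.2.1, HTSeq 0.6.0 and mm10 stand in the submitters' processing notes without roles, while the annotation and the strand setting were not given in the sources used here. Symbols came from GENCODE M21 for 46488 of 47069 identifiers.

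The table at hand for WT replicate 1 ends early, and later genes were not analysed in that library. From the deposited counts, edgeR 4.0.16 in R 4.3.3 (glmQLFit, glmQLFTest, TMM, filterByExpr, group as the only term, all groups in the fit) tested 2702 genes in 8 libraries (4 residual degrees of freedom, 99.92% of counts kept) and 15669 genes in the 7 others (3 degrees, 99.93%). On simulated counts, 73% of 2-fold and 100% of 4-fold changes were recovered in the first test, and 32% and 98% in the second. The simulation gave every gene and group the same spread and changed only genes above a set mean count. These shares therefore need not hold for the libraries themselves. Counting intervals are exact, at 95%, and cover counting error only. DESeq2 1.42.0, other size factors, no filter, other sets of libraries and a replicate block were tried.

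The comparison, the 23 gene lists and the rule for named genes were chosen with earlier results of these data known. The rule named, in each test against WT (in the second among genes not tested in the first), the 12 largest rises and 12 largest falls among called genes that had both Pcgf3KO libraries beyond WT and averaged 2 or more on the log2 CPM scale, without predicted genes. One fall that the rule picked in the first test is not reported here. It added the 4 members of smallest p in each list, 5 rises and 5 falls against Pcgf5KO, Pcgf3, Pcgf5, Tex10 and the most abundant feeder markers. Other list members were named to complete counts, after their values were seen. A comparison of CpG content in the promoters of called genes was void, since 73.1% of tested genes had a promoter in RefSeq's table.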

Additional observations from a re-analysis of the deposited data

Results flagged for a closer look

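The genes here were picked out because their change differed between the Pcgf3 and Pcgf5 knockouts by a direct test of that difference (edgeR's quasi-likelihood test with Benjamini-Hochberg adjustment). Values are log2 of Pcgf3KO over Pcgf5KO. Efhc2 (-2.63), Platr13 (-3.75), Smtnl1 (-2.05), Ube2l6 (-1.78) and Zfp990 (-1.57) were lower in Pcgf3KO, as were Pgk1 (-1.1), Vim (-0.69) and Lefty2 (-0.65). Higher in Pcgf3KO were Rhox6 (1.35), Usp26 (1.07), Gjb5 (1.05), Lemd1 (0.97), Tfcp2l1 (0.78) and Ranbp17 (0.66). Rhox6, Usp26, Efhc2 and Pgk1 are X-linked. Efhc2, Platr13 and Pgk1 passed under every other setting, and the others lost their call under at least 1. The value of Lemd1 is from the genes listed in all 8 tables (adjusted p = 0.05), and over all genes it did not pass (0.96, adjusted p = 0.0758).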

How the results depend on the processing

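Counts of calls depended on which libraries set the spread. Against both WT libraries (86 higher, 63 lower), they were 147 and 132 without a filter on low counts, 225 and 211 without both DKO libraries, and 159 and 147 with only the groups compared. Leaving out 1 library each gave 26 to 230 higher and 12 to 207 lower. Against WT replicate 2 (170 and 200), they were 515 and 590 without a filter, 1585 and 1573 without both DKO libraries, 1478 and 1552 with only the groups compared, and 27 to 1588 and 19 to 1579 with 1 library left out. The WT side has no second library there, so WT replicate 2 could not be left out. Against Pcgf5KO (8 and 14), they were 124 and 100 without a filter, 38 and 41 with DESeq2, 984 and 919 without both DKO libraries, 967 and 907 with only the groups compared, and 0 to 985 and 3 to 924 with 1 library left out. Of the fits against WT that left out 1 library, the lowest counts came without a Pcgf3KO or WT library and the highest without DKO replicate 1. A lone library was assumed to vary like the other groups. All 24 genes that the rule picked with both WT libraries, 73 with WT replicate 2 and 10 against Pcgf5KO kept their direction, and 7, 19 and 2 of them passed under every setting. Replicate numbers did not pair the libraries (correlations of the replicate differences from -0.062 to 0.197). With a replicate block the counts were 110 and 91, 205 and 211, and 26 and 36. In the simulation of the test with WT replicate 2, where all groups had the same spread, 32% of 2-fold changes were recovered. How recovery varies with depth, or with a spread that differs between groups, was not tested.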
